A study of Mus musculus with 40 samples.

Results

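The miR-34 and miR-449 family was followed in small RNA libraries from the hippocampal CA1 region of 40 mice. The 6 members described are mmu-miR-34a-5p, mmu-miR-34b-5p, mmu-miR-34b-3p, mmu-miR-34c-5p, mmu-miR-34c-3p and mmu-miR-449a-5p (below without the prefix for mouse), chosen by name from 1978 mature miRNAs in the deposited count table. Each library came from a single mouse and had its own replicate number. The groups were 5 wild-type control (WT) and 9 CaMKIIδC transgenic (TG) mice at 3 months of age, and 15 WT and 11 TG mice at 6 months of age. All mice were on the C57Bl/6J background, WT mice were littermates, and both sexes were used. TG mice carry a transgene for the δC form of calcium/calmodulin-dependent protein kinase II and serve as a model of heart failure, in which memory is impaired at the younger and not at the older age. The promoter of the transgene is not given in the sources used here. For 3-month-old WT mice 1 and 2 the genotype field reads TG although the title reads WT, and these mice were grouped by title.

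MiRNAs are short RNAs that guide silencing complexes to messenger RNAs, mainly by pairing of the seed, bases 2 to 8 from the 5′ end. miR-34a is made from a transcript of its own, whereas miR-34b and miR-34c are cut from a shared primary transcript, and the genes of both transcripts are known targets of the tumour suppressor p53. miR-449 miRNAs have the same seed and are best known from multiciliated epithelia. In the hippocampus, miR-34c is known for its link with memory decline in aged mice and in mouse models of Alzheimer's disease, which is why the family is of interest in this model.

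Mature sequences of 5 of 6 members were matched in RefSeq (GRCm38.p6), and they are shown because the seed, in capitals, differs between the 5p and the 3p arms. The 5p arms of miR-34a, miR-34b and miR-449a carry the seed GGCAGUG, which was found in 4 of 1679 matched mouse miRNAs, the fourth being miR-449c-5p. miR-34c-5p and miR-449b were not matched, so that their seeds are neither shown nor counted, and the 4 is a lowest number. The 3p arms of miR-34b and miR-34c carry another seed, AUCACUA, which no other of the 1679 has.
miR-34a-5p: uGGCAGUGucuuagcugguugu
miR-34b-5p: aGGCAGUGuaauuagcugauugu
miR-449a-5p: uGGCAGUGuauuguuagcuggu
miR-34b-3p: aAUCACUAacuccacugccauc
miR-34c-3p: aAUCACUAaccacacagccagg
Without shifting the sequences, miR-34a-5p and miR-449a-5p are identical at 15 of 22 bases, and miR-34b-3p and miR-34c-3p at 17 of 22.

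The hairpins lie at 3 places in GRCm38. Mir34a (ENSMUSG00000065493) is on the plus strand of chromosome 4 from 150068454 to 150068555, within an exon of the unclassified transcript Gm37795. Mir34b (ENSMUSG00000065492) and Mir34c (ENSMUSG00000065587) are on the minus strand of chromosome 9, from 51103562 to 51103645 and from 51103034 to 51103110, with 452 bp between them, in an intron of Btg4 on the opposite strand. Mir449a (ENSMUSG00000065575) is on the plus strand of chromosome 13 from 113037534 to 113037624, in an intron of Cdc20b. Each of the 6 members is listed with 1 precursor.

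Library totals ranged from 2656368 to 36547011 counts, with medians of 25437343 at 3 months and 14804574.5 at 6 months. Levels are given in CPM (reads scaled to the TMM-normalized library size). Scaled to the miRNA counts of a library without its TMM factor, a count of 3 reads corresponded to between 0.131 and 1.56 CPM. TMM factors shift this floor up in some libraries and down in others. In 6-month-old TG mouse 9, where it was 1.56 CPM, 3 reads of miR-34c-3p were 2.10 CPM with the TMM factor. The floor covers counting error only. The count table also lists 52 synthetic spike-in RNAs named UniSp. Principal components of the relative counts of 22 of them (at least 5000 reads in total) were used as a measure of how libraries differ technically. Component 1 held 71.7% of the variance and had values above 0 in 18 libraries and below 0 in 22, spread over all 4 groups. Component 2 held 14.1% and was above 0 in 11 of 14 libraries from 3-month-old mice and 2 of 26 from 6-month-old mice, so that age and this technical difference can hardly be told apart. The 5 neuronal marker miRNAs, among them miR-124-3p and miR-9-5p, were found in every library, with summed levels from 166500 to 364500 CPM. In this dissected tissue, fewer cells that hold a miRNA and less of it per cell cannot be told apart. Labels do not say whether mice came from separate litters or days, and p-values measure the spread between these mice.

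miR-34c-5p was the member with the most reads in all mice but 6-month-old WT mouse 11 and 3-month-old WT mouse 2, where miR-34a-5p had more. Over the 40 libraries its mean level was 135 CPM, place 171 among 1978 miRNAs, and it gave 70311 reads. miR-34a-5p followed with 52.1 CPM (33098 reads), miR-34b-5p with 28.2 CPM (15292 reads), miR-34b-3p with 9.68 CPM (4754 reads), miR-34c-3p with 2.01 CPM (1094 reads) and miR-449a-5p with 0.788 CPM (523 reads). Levels of different miRNAs carry the ligation preference of the library kit, and their order is a description. The remaining 5 entries of the family were near absent, with 36 reads for miR-34a-3p, 13 for miR-449a-3p, 13 for miR-449c-5p, 9 for miR-449b and 0 for miR-449c-3p in all libraries together.

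The reads of the 5p arms that share the GGCAGUG seed or belong with them (miR-34a-5p, miR-34b-5p, miR-34c-5p, miR-449a-5p and miR-449c-5p) were added up in each library. In WT mice this pool was 254 ± 148 CPM at 3 months (SD, n = 5) and 230 ± 167 CPM at 6 months (SD, n = 15). In TG mice it was 209 ± 74.0 CPM at 3 months (SD, n = 9) and 185 ± 61.8 CPM at 6 months (SD, n = 11). miR-34c-5p made up between 39.9% and 83.6% of it, with a median of 60.4%. The share of miR-34a-5p ranged much more widely around a median of 27.1%. It was lowest in 6-month-old WT mouse 8, with 2.35% of 5407 reads (95% Wilson interval 1.98% to 2.79%), and highest in 6-month-old WT mouse 11, with 50.5% of 1774 reads (48.1% to 52.8%). These intervals cover counting error only, since amplified reads are not independent molecules. The share of miR-34b-5p was steady, between 9.30% and 16.7%, and that of miR-449a-5p was at most 0.970%.

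**Figure D1:**
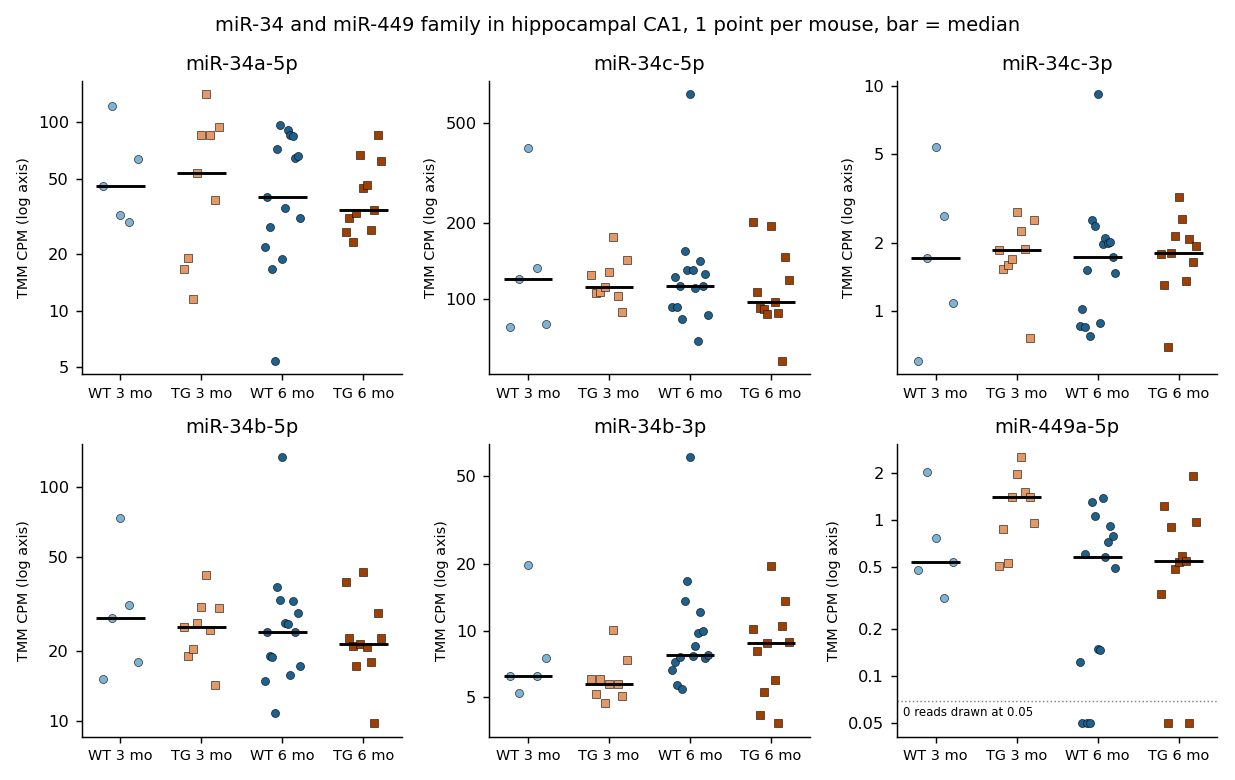
Level of each member in every mouse, by group, in TMM-normalized CPM on a log axis, with a bar at the median and libraries without reads drawn at 0.05. The 4 groups overlap for every member, and 1 WT mouse at each age stands above all other mice of its group in the 4 miRNAs of the miR-34b and miR-34c hairpins.

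Between 3 and 6 months in TG mice, the comparison that asks which miRNAs go with the return of memory, no member passed the test. Of 629 miRNAs tested with edgeR's quasi-likelihood test, 99 (15.7%) were called, which required a log2FC beyond 0.26 in either direction and a Benjamini-Hochberg p below 0.05, and 0 of 6 members were among them. Of the miRNAs tested, 7.47% were called as higher and 8.27% as lower at 6 months. Before adjustment, p was under 0.05 for 2 members and for 32.4% of all miRNAs. The log2FC of 6 over 3 months was below 0 for 4 members, and for 56.9% of all miRNAs tested, and above 0 for 2 members. The median over the 6 members was -0.06, beside -0.09 over all miRNAs tested.

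miR-34c-5p, the member linked with memory decline, had 88.8, 111 and 176 CPM as the lowest, median and highest level in 9 TG mice at 3 months, and 56.7, 97.3 and 201 CPM in 11 TG mice at 6 months. The 6-month-old mice thus spanned the whole range of the 3-month-old mice. The log2FC of 6 over 3 months was -0.04 (standard error 0.20, 95% interval -0.46 to 0.38, adjusted p = 0.927, edgeR). Its partner arm, miR-34c-3p, had a log2FC of 0.00 (95% interval -0.50 to 0.51), and miR-34b-5p of -0.08 (95% interval -0.55 to 0.38). With spike-in components 1 and 2 as covariates, miR-34c-3p had a log2FC of 1.33, outside its interval above (unadjusted p = 0.00154, adjusted p = 0.242, edgeR).

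miR-34b-3p had the highest log2FC of the 6 members. Its lowest, median and highest levels were 4.71, 5.73 and 10.0 CPM at 3 months and 3.79, 8.81 and 19.6 CPM at 6 months in TG mice. The ages overlap, and the higher mean at 6 months came with a wider spread, since the levels were 6.20 ± 1.63 CPM at 3 months (SD, n = 9) and 8.99 ± 4.61 CPM at 6 months (SD, n = 11). Its log2FC in edgeR was 0.55 with a standard error of 0.26 (adjusted p = 0.142), higher than 86.5% of the log2FC of all miRNAs tested. With 1 factor of unwanted variation it was called, with 0.54 (adjusted p = 0.0365) in edgeR and 0.47 (adjusted p = 0.0485) in DESeq2. The number of all miRNAs called was then 297 and 305 of 629. With spike-in component 1 as a covariate, when 223 of 629 were called, the log2FC of miR-34b-3p was 0.73 (adjusted p = 0.0106, edgeR). With components 1 and 2 it was 0.83 (adjusted p = 0.785, edgeR).

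miR-449a-5p, the only measured miRNA of the Cdc20b locus with more than a few reads, had the lowest log2FC. In TG mice it had 0.505, 1.39 and 2.52 CPM as the lowest, median and highest level at 3 months, and 0, 0.542 and 1.90 CPM at 6 months. These levels are close to the floor, since 1 of 9 libraries at 3 months and 4 of 11 at 6 months held 3 reads or fewer, and 2 of the latter held 0. The log2FC was -0.86 (standard error 0.40, 95% interval -1.70 to -0.02, adjusted p = 0.136, edgeR). The mean log2 CPM fell by 1.01 between the ages (exact permutation p = 0.0286, two-sided), the only unadjusted p under 0.05 among 24 tests of members and comparisons, and its adjusted p was 0.687. With 1 factor of unwanted variation miR-449a-5p was called, with a log2FC of -0.81 (adjusted p = 0.0392) in edgeR and -0.85 (adjusted p = 0.0187) in DESeq2. All miRNAs called were then 297 and 305 of 629. With spike-in component 1 as a covariate the log2FC of miR-449a-5p was -0.58 (adjusted p = 0.234, edgeR), and with components 1 and 2 it was -1.07 (adjusted p = 0.805, edgeR).

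miR-34a-5p ranged from 11.5 to 141 CPM with a median of 53.9 at 3 months, and from 23.1 to 85.5 CPM with a median of 34.3 at 6 months in TG mice. The 3-month-old mice included both the lowest and the highest level of the 20. In edgeR its log2FC was -0.47 with a standard error of 0.38 (adjusted p = 0.392), and it was 0.40 (adjusted p = 0.144) with spike-in component 1 as a covariate and -0.07 (adjusted p = 0.963) with components 1 and 2. Within the libraries with component 1 above 0, 4 mice at 3 months had 21.6 ± 12.0 CPM (SD) and 6 mice at 6 months 29.1 ± 4.41 CPM (SD). Within those below 0, 5 mice at 3 months had 92.4 ± 31.3 CPM (SD) and 5 mice at 6 months 61.3 ± 16.7 CPM (SD). The differences in mean log2 CPM were 0.56 and -0.57, with exact permutation p of 0.124 and 0.0794. Of 36 such tests of members within the sides, 0 had an unadjusted p under 0.05, and the smallest adjusted p was 0.872. The difference between the sides was not tested.

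**Figure D2:**
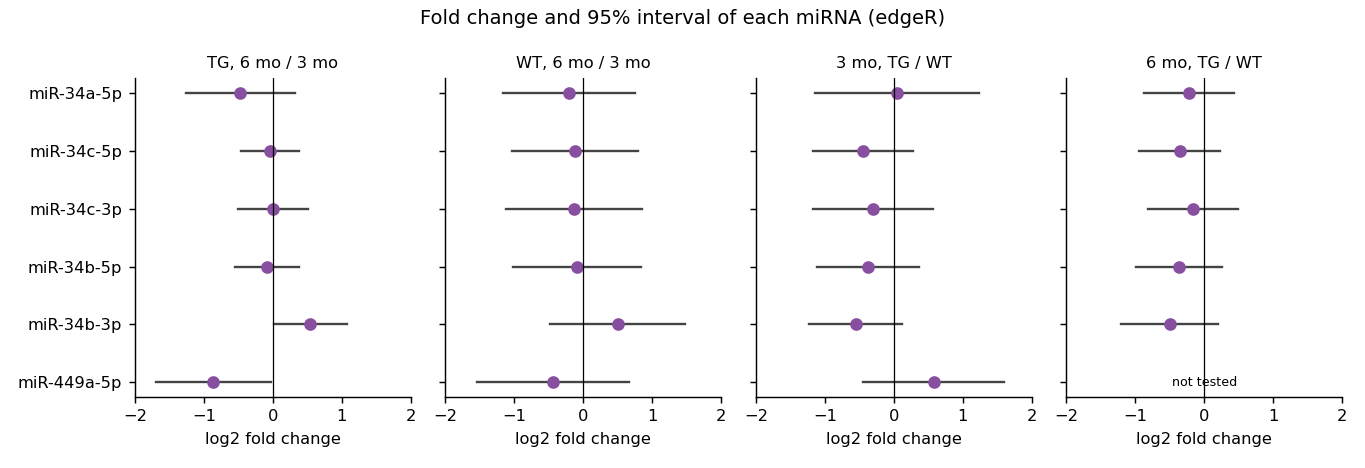
Log2 fold change of each member with its 95% interval from edgeR in the 4 pairwise comparisons. In TG mice the intervals of miR-34b-3p (0.02 to 1.08) and miR-449a-5p (-1.70 to -0.02) do not reach 0 before adjustment, and every other interval crosses 0.

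In WT mice between 3 and 6 months, 1 of 660 miRNAs (0.152%) was called and 0 of 6 members. No member had an unadjusted p under 0.05, which 15.5% of all miRNAs had. The log2FC was below 0 for 5 of 6 members and for 51.8% of all miRNAs tested. miR-34c-5p was 77.0, 119, 396, 133 and 79.4 CPM in 3-month-old WT mice 1 to 5, and had 68.0, 113 and 650.0 CPM as the lowest, median and highest level at 6 months. Apart from 1 high mouse in each group, both ages lay between 68.0 and 155 CPM. The log2FC was -0.12 (95% interval -1.04 to 0.80, adjusted p = 0.919, edgeR), an interval wider than in TG mice. Without 3-month-old WT mouse 3, the high mouse, it was 0.52 (adjusted p = 0.654), and without the high mice of both ages 0.08 (adjusted p = 0.866).

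The other arms of the chromosome 9 hairpins had log2FC of -0.09 for miR-34b-5p, 0.50 for miR-34b-3p and -0.13 for miR-34c-3p in WT mice, with adjusted p from 0.639 to 0.933 (edgeR). miR-34b-3p had 6.24, 5.22, 19.8, 6.20 and 7.48 CPM in 3-month-old WT mice 1 to 5, and 5.42, 7.71 and 61.2 CPM as the lowest, median and highest level at 6 months. Its log2FC was 0.35 to 1.00 when 1 WT mouse of 3 months was left out, the highest without mouse 3 (adjusted p = 0.489). DESeq2, which replaces outlying counts in larger groups, gave 0.01 for it (adjusted p = 0.972). miR-34a-5p had 45.8, 122, 32.3, 29.7 and 63.7 CPM in 3-month-old WT mice 1 to 5 and 5.42, 40.4 and 97.0 CPM as the lowest, median and highest level at 6 months, and its log2FC was -0.21 (95% interval -1.16 to 0.75, adjusted p = 0.862, edgeR). miR-449a-5p had 0.480, 2.03, 0.770, 0.318 and 0.541 CPM in 3-month-old WT mice 1 to 5 and a log2FC of -0.44 (adjusted p = 0.702, edgeR). Mouse 2, whose genotype field gives TG, was the highest of the 5 in both. Its library also had the lowest value of spike-in component 1 (-3.36) and the largest total (31304284 counts) of the 5. Without mouse 2 the log2FC were 0.26 for miR-34a-5p and 0.31 for miR-449a-5p (adjusted p = 0.939 for both, edgeR).

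Between TG and WT mice at 3 months, when memory is impaired in this model, 0 of 695 miRNAs (0%) were called and 0 of 6 members. An unadjusted p under 0.05 was found for 0 members and 1.01% of all miRNAs, and DESeq2 also called 0. The log2FC of TG over WT was below 0 for 4 of 6 members and for 44.5% of all miRNAs tested. Levels of miR-34c-5p were 161 ± 134 CPM in WT (SD, n = 5) and 121 ± 26.1 CPM in TG mice (SD, n = 9), with a log2FC of TG over WT of -0.44 (95% interval -1.17 to 0.28, adjusted p = 0.998, edgeR). Without WT mouse 3 it was 0.21 (adjusted p = 0.995). miR-34b-5p, miR-34b-3p and miR-34c-3p had log2FC of -0.37, -0.56 and -0.30, and these were 0.14, -0.04 and 0.26 without WT mouse 3, so that the lower mean levels in TG mice rest on that mouse.

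miR-34a-5p had a log2FC of 0.04 (95% interval -1.14 to 1.23, adjusted p = 0.998, edgeR) at 3 months. For miR-449a-5p, levels of 0.829 ± 0.693 CPM in WT (SD, n = 5) and 1.29 ± 0.663 CPM in TG mice (SD, n = 9) gave a log2FC of 0.58 (95% interval -0.44 to 1.61, adjusted p = 0.998, edgeR). Without WT mouse 2, its log2FC was 1.35 (unadjusted p = 0.0124, adjusted p = 0.959).

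The values at 3 months depended on WT mice 1 and 2, whose labels disagree. Without both, edgeR gave log2FC of -0.77 for miR-34c-5p, -0.67 for miR-34b-5p, -0.86 for miR-34b-3p (unadjusted p = 0.0258), -0.68 for miR-34c-3p, 0.56 for miR-34a-5p and 1.3 for miR-449a-5p (unadjusted p = 0.0304), each with an adjusted p of 0.990. Counted as TG mice they gave -0.77 for miR-34c-5p (unadjusted p = 0.0363), -0.68 for miR-34b-5p, -0.84 for miR-34b-3p (unadjusted p = 0.0151), -0.75 for miR-34c-3p, 0.67 for miR-34a-5p and 1.33 for miR-449a-5p (unadjusted p = 0.0276), each with an adjusted p of 0.995. In both cases 0 miRNAs were called. These sizes rest on 3 WT mice, 1 of them mouse 3.

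At 6 months, 0 of 612 miRNAs (0%) were called between TG and WT mice, and 0 of 5 members tested. miR-449a-5p did not pass the filter on low counts in these libraries. An unadjusted p under 0.05 was found for 0 members and 0.490% of all miRNAs, and DESeq2 also called 0. All 5 tested members were lower in TG mice, with log2FC from -0.50 for miR-34b-3p to -0.17 for miR-34c-3p, while 52.6% of all miRNAs tested were lower. miR-34c-5p had 68.0, 113 and 650.0 CPM as the lowest, median and highest level in WT mice and 56.7, 97.3 and 201 CPM in TG mice, with a log2FC of -0.36 (95% interval -0.95 to 0.23, adjusted p = 0.992, edgeR). Without WT mouse 8 the log2FC were 0.05 for miR-34c-5p, 0.02 for miR-34b-5p, -0.03 for miR-34b-3p and 0.19 for miR-34c-3p. The lower values of these 4 miRNAs in TG mice thus rest on 1 WT mouse. DESeq2, which replaces outlying counts, gave 0.03 for miR-34c-5p with all mice, but -0.40 for miR-34b-5p, -0.53 for miR-34b-3p and -0.22 for miR-34c-3p (adjusted p = 0.990 for each). miR-34a-5p had a log2FC of -0.23 with that mouse and -0.29 without it (adjusted p = 0.998).

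The interaction of age and genotype asks whether the change between 3 and 6 months differs between TG and WT mice. Of 699 miRNAs, 0 (0%) were called by edgeR or DESeq2 and 2% had an unadjusted p under 0.05. For the members both numbers were 0 of 6. The estimates were below 0 for 2 of 6 members and for 60.5% of all miRNAs tested. On the log2 scale they ran from -0.44 for miR-449a-5p to 0.12 for miR-34c-3p. Without 3-month-old WT mouse 3, the 4 miRNAs of the chromosome 9 hairpins had estimates from -0.57 to -0.44 with adjusted p of 0.994 for each. The comparisons share groups: 3-month-old TG mice enter the comparison of ages in TG mice as well as that of genotypes at 3 months.

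Ratios of reads within a library do not depend on its size, and 5 ratios were compared in the 4 pairwise comparisons. Of 20 tests, 3 had an unadjusted p under 0.05 and 0 an adjusted one. All 3 concerned miR-34b-3p and the ages. The ratio of 5p to 3p reads of miR-34b ranged from 2.83 to 5.56 with a median of 4.17 in 9 TG mice at 3 months, and from 0.933 to 5.07 with a median of 2.80 in 11 TG mice at 6 months. The lowest ratio at 6 months came from 14 reads over 15 reads in TG mouse 9, the library with the lowest total (2656368 counts). In TG mice the mean log2 ratio was lower by a difference of -0.56 at 6 months (exact permutation p = 0.0195, two-sided, adjusted p = 0.195). In WT mice the ratio was 2.42, 5.28, 3.72, 5.04 and 2.40 in 3-month-old mice 1 to 5 and had 1.62, 2.47 and 3.86 as the lowest, median and highest value at 6 months. The difference was -0.48 on the log2 scale there (exact permutation p = 0.0439, two-sided, adjusted p = 0.264).

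The ratio was also set beside the spike-in profile of the libraries. The 11 libraries of 3-month-old mice with spike-in component 2 above 0 had ratios of 3.38 to 5.56, and the 3 with a value below 0 (TG mouse 8 and WT mice 1 and 5) had 2.40 to 2.83. The last 3 lay inside the range of the 24 libraries of 6-month-old mice with a value below 0, which was 0.933 to 5.07. The 2 libraries of 6-month-old mice with a value above 0 had 2.47 and 3.26. Over 40 mice, with group means removed, the log2 ratio had a Pearson r of 0.238 with component 2 (permutation p = 0.0996, adjusted p = 0.156; Spearman rho 0.246, permutation p = 0.148), so that the relation within groups did not pass the test. With the library total its r was 0.468 (adjusted permutation p = 0.0267; rho 0.295, adjusted permutation p = 0.131), and 0.188 without the 2 mice farthest from the median.

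**Figure D3:**
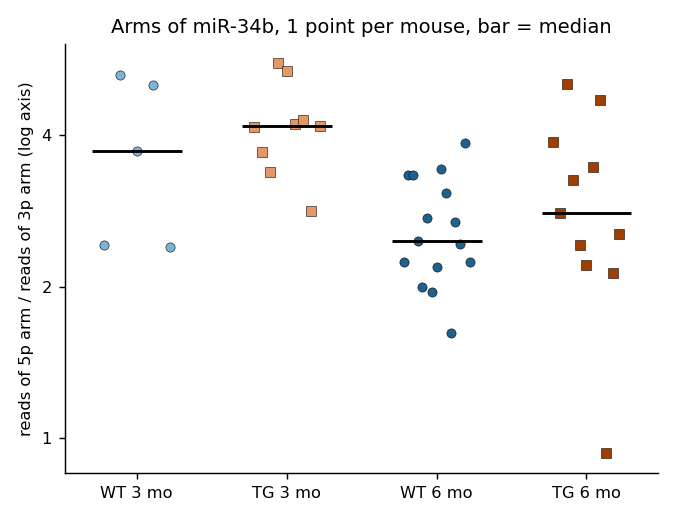
Reads of miR-34b-5p divided by reads of miR-34b-3p in every mouse, by group, on a log axis, with a bar at the median. Medians are 3.72 and 4.17 in WT and TG mice at 3 months and 2.47 and 2.80 at 6 months, and the ages overlap in both genotypes.

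miR-34b-3p as a share of miR-34c-5p reads had a median of 5.16% in TG mice at 3 months and 7.48% at 6 months, with a difference in mean log2 ratio of 0.54 (exact permutation p = 0.0125, two-sided, adjusted p = 0.195). In WT mice the difference was 0.41 (exact permutation p = 0.0659, adjusted p = 0.264). This ratio also moved with spike-in component 2 within groups, with r of -0.329 (adjusted permutation p = 0.0339; rho -0.435, adjusted permutation p = 0.014) and -0.348 without the 2 farthest mice. The 3p over 5p ratio of miR-34c, the neighbouring hairpin, gave differences of 0.13 in TG and 0.06 in WT mice (exact permutation p = 0.622 and 0.797). The ratio of miR-34c-5p to miR-34a-5p differed by 0.05 in TG mice and 0.26 in WT mice between the ages (exact permutation p = 0.911 and 0.767), although single libraries ranged from 0.791 to 34.5.

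A pair of WT mice stood far above their groups in the miR-34b and miR-34c hairpins, and they were singled out after their values were seen. In 6-month-old WT mouse 8, miR-34c-5p reached 650.0 CPM, against 68.0 to 155 CPM in the other 14 mice. miR-34b-5p was 134 CPM (others 10.8 to 37.3), miR-34b-3p 61.2 CPM (others 5.42 to 16.8) and miR-34c-3p 9.21 CPM (others 0.775 to 2.53), so that the 4 miRNAs were 5.55 to 7.94 times the median of the others. miR-34a-5p was 18.9 CPM in this mouse, 0.358 times the median of the others, and miR-449a-5p 0.149 CPM. Among the 361 miRNAs that averaged 10 CPM or more, miR-34c-5p and miR-34b-5p were the first and the second highest in this mouse relative to the median of the others, and miR-10b-5p was the third with 72.6 against 13.7 CPM.

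In 3-month-old WT mouse 3, miR-34c-5p reached 396 CPM, against 77.0 to 133 CPM in the other 4 mice. miR-34b-5p was 73.5 CPM, miR-34b-3p 19.8 CPM and miR-34c-3p 5.39 CPM, each 3.18 to 3.98 times the median of the others. miR-34c-5p and miR-34b-5p came next among the 361 miRNAs, after miR-10b-5p with 45.4 against 4.31 CPM. The 2 mice thus share the same 3 leading miRNAs, of which miR-34c-5p and miR-34b-5p are those by which the mice were singled out. miR-34b-3p, with a mean of 9.68 CPM, was not ranked. Summed levels of the 3 choroid plexus markers (miR-204-5p, miR-204-3p and miR-211-5p) were 1763 CPM in 6-month-old mouse 8, against 557 to 970.4 CPM in the others, but 651 CPM in 3-month-old mouse 3, inside the range of the other 4 (378 to 858 CPM). The 5 markers of the epithelial miR-200 family summed to 37.0 CPM in the former, below all 14 others, and to 187 CPM in the latter. In 3-month-old mouse 3 the 4 vessel markers summed to 16310 CPM (others 9492 to 13440) and the 3 oligodendrocyte markers to 1647 CPM (others 1047 to 1590), above all 4 other mice in both. The part of other tissue in these levels was not tested.

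Across mice, members of the chromosome 9 hairpins varied together. With group means removed over 40 mice, log2 levels of miR-34b-5p and miR-34c-5p had a Pearson r of 0.957 (permutation p = 1e-05, the smallest that 100000 resamples can give, adjusted p = 3e-05) and a Spearman rho of 0.941 (permutation p = 1e-05). Without the 2 mice farthest from the median, the same WT mice, r was 0.926. It was 0.931 in 3-month-old TG mice, 0.972 in 6-month-old TG mice and 0.954 in 6-month-old WT mice. The other 5 pairs among the 4 miRNAs had r from 0.729 to 0.790, and from 0.434 to 0.587 without the 2 mice. The sequence of miR-34c-5p was not matched, so its likeness to miR-34b-5p was not examined. Whether reads of 1 of these 5p arms were counted as the other was not tested.

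miR-34a-5p had r of 0.00613 with miR-34c-5p (permutation p = 0.970; rho 0.187, permutation p = 0.246) and 0.218 with miR-34b-5p (permutation p = 0.194; rho 0.334, permutation p = 0.0417, adjusted p = 0.0594). With miR-34c-3p its r was 0.234 (adjusted permutation p = 0.249) and its rho 0.389 (adjusted permutation p = 0.0343). Within 3-month-old TG mice r was 0.656 with miR-34b-5p and 0.539 with miR-34c-5p, while in the other 2 groups of at least 6 mice it was between -0.0538 and 0.237 for these pairs. The highest r of miR-34a-5p was with miR-449a-5p, from another chromosome, with r of 0.710 and rho of 0.728 (permutation p = 1e-05 for both, adjusted p = 3e-05 and 5e-05), and 0.677 without the 2 mice farthest from the median. This r was 0.860, 0.557 and 0.805 in the 3 groups of at least 6 mice. In all, 7 of 15 pairs had an adjusted p under 0.05 for Pearson's r, the 6 pairs of the chromosome 9 hairpins and this pair. For Spearman's rho there were 9 of 15, the same 7 and miR-34c-3p with miR-34a-5p and miR-34b-5p with miR-449a-5p (rho 0.377, adjusted permutation p = 0.0374). Without TMM normalization all 15 pairs had one, and r of miR-34a-5p with miR-34c-5p was 0.423.

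**Figure D4:**
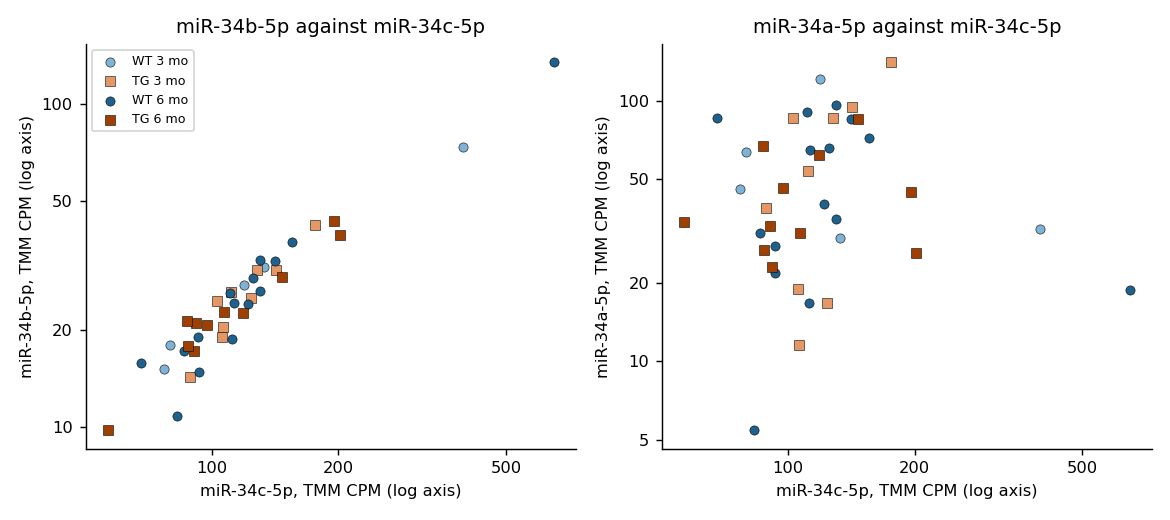
Levels of miR-34b-5p and of miR-34a-5p against miR-34c-5p in every mouse, in TMM-normalized CPM on log axes, by group. miR-34b-5p follows miR-34c-5p over its whole range (r = 0.957 with group means removed), while the points of miR-34a-5p, from 5.42 to 141 CPM, show no such line (r = 0.00613). Whether reads of miR-34c-5p were counted as miR-34b-5p was not tested.

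Levels of miR-34a-5p moved with the spike-in profile of the library. Over 40 mice with group means removed, its log2 level had r of -0.864 with spike-in component 1 (permutation p = 1e-05, adjusted p = 0.000165; rho -0.811, permutation p = 1e-05) and r of -0.825 without the 2 mice farthest from the median. It was 26.3 ± 10.7 CPM (SD) in 18 libraries with component 1 above 0 and 73.2 ± 28.2 CPM (SD) in 22 below 0. Within these sides r was -0.657 and -0.458. With the library total, its r was 0.590 (adjusted permutation p = 0.000412; rho 0.555, adjusted permutation p = 0.00158), and 0.547 without the 2 farthest mice. Such a relation was common among miRNAs, as 265 of 361 had an absolute r above 0.5, and the median absolute r was 0.753. Among the members, miR-449a-5p had r of -0.651 (adjusted p = 0.00022), miR-34c-3p -0.450 (adjusted p = 0.014) and miR-34b-5p -0.411 (adjusted p = 0.0267), each from permutations, while miR-34b-3p had -0.308 (adjusted permutation p = 0.103) and miR-34c-5p -0.195 (adjusted permutation p = 0.278). The ratio of miR-34c-5p to miR-34a-5p, which needs no library size, had r of 0.631 (permutation p = 1e-05, adjusted p = 0.000165; rho 0.689, permutation p = 1e-05) and 0.562 without the 2 farthest mice.

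With component 1 removed as well as group means, r of miR-34b-5p with miR-34c-5p was 0.980, and that of miR-34a-5p with miR-449a-5p was 0.387. Within the sides of component 1, the latter was 0.326 over 18 mice and 0.669 over 22, while the former was 0.981 and 0.977. The part of the technical difference in levels of miR-34a-5p and miR-449a-5p was not tested beyond these values.

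**Figure D5:**
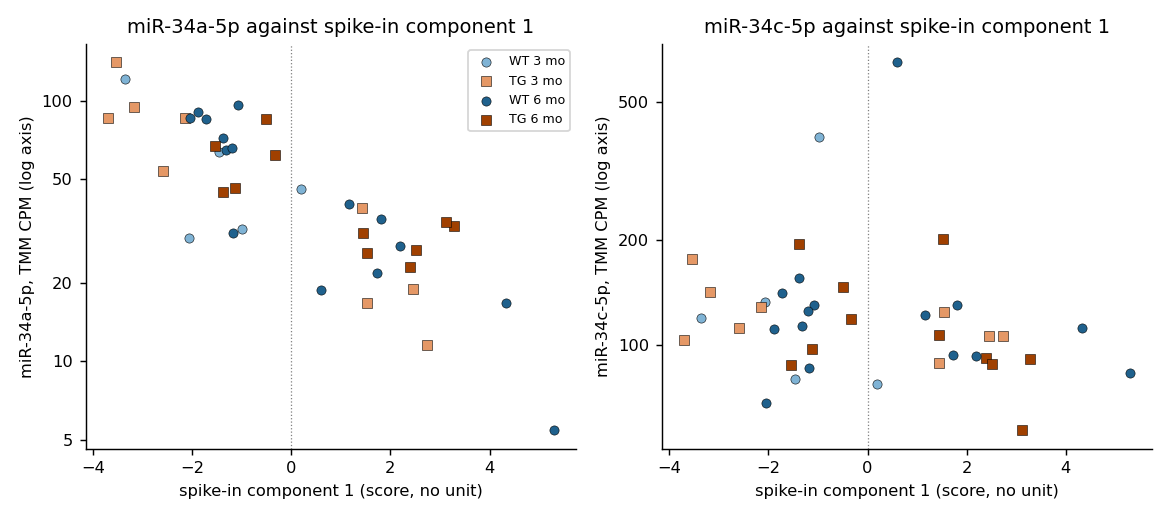
Levels of miR-34a-5p and miR-34c-5p in every mouse, in TMM-normalized CPM on a log axis, against component 1 of the spike-in profiles. miR-34a-5p falls along the component (r = -0.864) and miR-34c-5p does so less (r = -0.195), with the 2 high WT mice near the middle of the axis.

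Levels of the members were compared with summed levels of 7 lists of marker miRNAs for cell types of the tissue. Of 42 pairs, 14 had an adjusted permutation p under 0.05 for Pearson's r and 19 for Spearman's rho. The largest was between miR-34a-5p and the 5 miRNAs of microglia and leukocytes, among them miR-223-3p and miR-142a-3p, with r of 0.798 and rho of 0.745 (permutation p = 1e-05 for both, adjusted p = 0.00014 and 0.00021), and 0.740 without the 2 farthest mice. This list itself had r of -0.950 with spike-in component 1. Neuronal, red blood cell and vessel lists had r of 0.852, 0.802 and 0.676 with it. Choroid plexus, miR-200 and oligodendrocyte lists had 0.212, 0.0112 and 0.00415. The relation of miR-34a-5p with neuronal markers, r of -0.665 (adjusted permutation p = 0.00014), was 0.475 without TMM normalization, so that its direction depends on the scaling. miR-34c-5p had no list with an adjusted p under 0.05 for Pearson's r. For Spearman's rho, neuronal markers (rho -0.419, adjusted permutation p = 0.0241) and red blood cell markers (rho -0.376, adjusted permutation p = 0.0393) passed with miR-34c-5p. Its r with the choroid plexus markers was 0.292 (adjusted permutation p = 0.165; rho -0.05, adjusted permutation p = 0.863), -0.01 without the 2 farthest mice and 0.599 without TMM normalization.

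Some markers were called between the ages in TG mice, where members were not. Over all miRNAs tested 15.7% were called, 7.47% as higher and 8.27% as lower at 6 months. With spike-in components 1 and 2 as covariates, 2 of all miRNAs were called, so that age and the technical difference can hardly be told apart here. Of 3 choroid plexus markers, miR-204-5p (log2FC 0.89, adjusted p = 0.000602) and miR-211-5p (1.07, adjusted p = 0.00103) rose in edgeR's test, and their list had summed levels of 299 to 765 CPM at 3 months and 649 to 1044 CPM at 6 months. Of 3 oligodendrocyte markers, miR-219a-2-3p (-0.57) and miR-338-3p (-1.02) fell. Of 3 red blood cell markers miR-451a rose (0.68) and miR-144-3p fell (-0.98), and of 4 vessel markers miR-126a-3p rose (0.73). Of 5 markers each, 1 fell for microglia and leukocytes, miR-150-5p (-0.71), and 1 rose for neurons, miR-128-3p (0.73). Of 4 tested of the miR-200 family 1 fell, miR-200c-3p (-0.71). Their part in levels of the members was not tested.

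A further pair of lists set the family among related miRNAs. Of 12 miRNAs linked with memory, 1 was called between the ages in TG mice, miR-128-3p with a log2FC of 0.73 (adjusted p = 0.021, edgeR), and the median log2FC was -0.14, beside -0.09 over all miRNAs. The activity-linked miR-132-3p (0.32, adjusted p = 0.140) and miR-212-3p (-0.46, adjusted p = 0.206) were not called. Of 9 tested of 10 miRNAs linked with p53, 2 were called, both lower: miR-15a-5p with -1.67 (adjusted p = 0.0234) and miR-200c-3p with -0.71 (adjusted p = 0.0425). The median of this list was 0.03. Over all miRNAs tested 15.7% were called in either direction and 8.27% were called as lower, and nothing particular to either list is read from its count. In the other 4 comparisons 0 miRNAs of either list were called by edgeR.

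The miRNAs most like each member were taken as those with the highest Pearson r of log2 deviations from the group means over 40 mice, among the 361 miRNAs that averaged 10 CPM or more. miR-34c-5p had miR-34b-5p (0.957), miR-152-3p (0.587) and miR-3102-3p (0.541) next to it. For miR-34b-5p, after miR-34c-5p, these were miR-3102-3p (0.621) and miR-203-3p (0.619). The gap after the partner hairpin was thus wide. miR-34a-5p had a set of nearly equal neighbours, miR-339-5p (0.897), miR-154-5p (0.891) and miR-16-5p (0.890), and miR-449a-5p had miR-135a-5p (0.774), miR-384-3p (0.772) and miR-195a-5p (0.763). For miR-34b-3p and miR-34c-3p the nearest were the 5p arms of the same 2 hairpins, with r of 0.729 to 0.790, followed by miR-3102-3p (0.546) and miR-27b-3p (0.589). These r describe the libraries, which share differences in spike-in profile and depth, and carry no test.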

How the data were processed

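Small RNA was sequenced by the authors from the hippocampal CA1 region of 40 mice (300 ng RNA, NEBNext small RNA kit, Illumina HiSeq) and quantified with mirdeep2 against miRBase on mm10; the submitters' notes name bcl2fastq 2.20.2, FastQC 0.11.5 and cutadapt 2.8. The deposited table holds raw counts per miRNA and precursor. For a mature miRNA listed with several precursors the row with the most reads was used, and the sum over precursors was an alternative. A deposited table of normalized values was not used.

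Levels are TMM CPM. Comparisons used edgeR 4.0.16 (quasi-likelihood test, TMM, filterByExpr) under R 4.3.3, with Benjamini-Hochberg adjustment over all miRNAs tested, adjusted p under 0.05 and absolute log2FC above 0.26. The study's DESeq2 with unwanted-variation factors was an alternative (DESeq2 1.42.0, 1 factor from residuals), since their kind and number are not given. Permutation tests (scipy 1.17.1, two-sided) compared means of log2 CPM (prior count 2) or of log2 ratios with 0.5 added to each count, exact for groups under 10 mice, otherwise with 100000 resamples. Correlations used deviations from group means. On simulated counts, edgeR recovered 82.2% of 197 miRNAs changed 2-fold for the ages in TG mice, with 618 tested, 71.6% of 190 for the ages in WT mice (645 tested), 49% of 194 and 93.4% of 198 for the genotypes at 3 and 6 months (684 and 602 tested) and 46.2% of 197 for the interaction (683 tested). False calls were 6, 6, 4, 8 and 3 in the same order. The simulated miRNAs varied independently, without the technical differences in profile that the libraries share. The shares cover miRNAs of all levels together, so they do not give the recovery of low members such as miR-449a-5p.

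Named miRNAs were the members, other miR-34 and miR-449 entries, called miRNAs of the lists, and for each member the 3 miRNAs most like it; miR-132-3p, miR-212-3p and the leading miRNAs of 2 mice were added after their values were seen. Members and lists were chosen with earlier results of these data known. Groups came from sample titles. Alternatives changed scaling, filter, tool, factors, spike-in covariates, replicate block and mice.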

Additional observations from a re-analysis of the deposited data

Results flagged for a closer look

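Single mice stood apart from their group in 5 of 22 sets of values examined with Dixon's criterion at 95%. Chance alone gives about 1 in 20 only where values are normally distributed. All 5 were highest values of CPM without a log, and members vary together, so the number is not read as an excess. In 3-month-old WT mice, mouse 3 had the highest level of miR-34c-5p (396 CPM), miR-34b-5p (73.5 CPM) and miR-34b-3p (19.8 CPM). These are 3 readings of neighbouring hairpins in 1 mouse. Mouse 2 of the same group, whose genotype field and title differ, had the highest level of miR-449a-5p (2.03 CPM). In 3-month-old TG mice, mouse 6 had the highest level of miR-34b-3p (10.0 CPM). The group of 6-month-old WT mice, with the high mouse 8, was too large for this criterion.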

How the results depend on the processing

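No member was called under TMM, size factors by RLE, upper quartile, without a low-count filter, with a mean of at least 10 CPM, in the joint fit or in DESeq2 without factors. For the ages in TG mice, members called were 2 of 6 with 1 factor of unwanted variation in edgeR or DESeq2 and 1 with spike-in component 1. All miRNAs called were 297, 305 and 223 of 629 in these fits, but 2 with both components. The factor was estimated from residuals of the same counts, and nothing particular to the members is read from these calls. For the ages in WT mice, all miRNAs called were 0 with upper quartile, 25 in DESeq2, 171 and 193 with a factor, 2 and 0 with spike-in covariates, 0 without both high mice, and 0 to 4 leaving out 1 mouse. Between genotypes they were 1 at 3 months (DESeq2 with a factor) and 3 and 4 at 6 months (edgeR and DESeq2 with a factor). The cause was not tested.

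Labels do not say that replicate numbers pair mice, and the main comparisons left these numbers out. The numbers went in part with spike-in component 1. TG mice 1 to 3 and 8 were above 0 at both ages and mice 5 to 7 below 0, while mice 4 and 9 were on opposite sides. At 6 months, TG and WT mice with the same number, from 1 to 11, were on the same side, with the exception of mouse 5. What this order reflects was not tested. Same-numbered mice had mean correlations of deviations of 0.226 over 9 pairs (7 over 0.1), 0.0351 over 5 (2), 0.0068 over 5 (2) and 0.259 over 11 (9) for the ages in TG and WT mice and the genotypes at 3 and 6 months. With a replicate block, 1 member was called for the ages in TG mice (miR-449a-5p, -1.28), where 124 of 629 miRNAs were called in all. In WT mice 2 members were called (miR-34a-5p, -1.32, and miR-449a-5p, -2.29), where 250 of 660 miRNAs were called in all and miR-34b-3p turned to -0.29. A block compares only numbers present in both groups. The WT values thus rest on 5 same-numbered pairs, since 6-month-old WT mice 6 to 15 have no partner at 3 months. miR-34a-5p turned to -0.95 and 0.057 between genotypes at 3 and 6 months.

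The following log2 values changed sign. For the ages in TG mice, miR-34c-3p was -0.057 with RLE, -0.063 without a filter, -0.060 in DESeq2, -0.041 in DESeq2 with a factor and -0.01 in the joint fit. miR-34c-5p was 0.011 with WT mice 1 and 2 of 3 months counted as TG. With spike-in component 1, miR-34a-5p, miR-34b-5p and miR-34c-5p were 0.40, 0.15 and 0.10, and with both components the last 2 were 0.48 and 0.28. By side of component 1, differences in mean log2 CPM were 0.56, 0.021 and 0.055 above 0 for miR-34a-5p, miR-34b-5p and miR-34c-3p, and 0.033 below 0 for miR-34c-3p. For the ages in WT mice, miR-34a-5p and miR-449a-5p were 0.27 and 0.27 without mice 1 and 2 (likewise counted as TG), 0.43 and 0.33 with component 1 and 0.24 and 0.52 with both. miR-34b-5p was 0.037 with component 1 and 0.74 with both, when miR-34c-5p and miR-34c-3p were 0.65 and 0.95. Without both high mice the last 2 were 0.084 and 0.030. Leaving out 1 WT mouse of 3 months, log2FC for the ages ranged from -0.39 to 0.26 for miR-34a-5p, -0.28 to 0.42 for miR-34b-5p, -0.30 to 0.52 for miR-34c-5p, -0.35 to 0.42 for miR-34c-3p and -0.67 to 0.31 for miR-449a-5p, and between genotypes at 3 months from -0.12 to 0.55, -0.56 to 0.14, -0.62 to 0.21 and -0.52 to 0.26 for the first 4. At 3 months, miR-34a-5p was -0.21 and -0.16 with a factor, and without mouse 3 it was -0.11, with miR-34b-5p 0.14, miR-34c-5p 0.21 and miR-34c-3p 0.26. At 6 months miR-34c-5p was 0.031 in DESeq2, and miR-34a-5p 0.10 and 0.12 with spike-in covariates. Without mouse 8, miR-34b-5p, miR-34c-5p and miR-34c-3p were 0.024, 0.046 and 0.19. Without WT mice 1 and 2, log2 ratios of miR-34c-5p to miR-34a-5p were -0.41 (ages) and -0.64 (genotypes), of miR-34c-3p to miR-34c-5p -0.13 and -0.033, and of miR-449a-5p to miR-34c-5p 0.17 (ages).

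Without TMM, 15 member pairs and 28 pairs of members and lists passed, and correlations of neuronal markers were 0.475, 0.137, 0.116, 0.00743 and 0.443 with miR-34a-5p, miR-34b-5p, miR-34b-3p, miR-34c-3p and miR-449a-5p; those of red blood cell and vessel markers with miR-34a-5p were 0.000727 and 0.493. Depth limited miR-449a-5p most, with 3 reads or fewer in 6 of 15 libraries of 6-month-old WT mice.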

Other observations

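miR-10b-5p, singled out after its values were seen, was raised in both WT mice with high levels of the chromosome 9 hairpins, with 45.4 CPM against a median of 4.31 CPM in the other 4 mice at 3 months and 72.6 CPM against 13.7 CPM in the other 14 at 6 months. It was not among the 3 miRNAs most like miR-34b-5p or miR-34c-5p over the 40 mice. In 6-month-old WT mouse 8 miR-375-3p was raised as well, with 143 CPM against 53.4 CPM, and in 3-month-old WT mouse 3 miR-1a-3p, with 1190 against 483 CPM.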
